A study of Mus musculus with 6 samples.

Results

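Nucleolar ribosome biogenesis genes encode the machinery that transcribes, modifies, cuts and assembles ribosomal RNA in the nucleolus. RNA polymerase I makes the long precursor, small nucleolar ribonucleoproteins (snoRNPs) modify it, the processome and assembly factors cut and fold it into the small and large subunits, and the RNA exosome trims and degrades its by-products. The pathway is a major target of the growth regulator MYC, and its output is known to be restrained by the tumour suppressor p53. The genes were taken from the array by symbol: those starting with Utp, Rrp, Exosc or Polr1, those formed of Nop and a digit, and a short list of further names from Nolc1 to Srm. The rule found 47 genes of the 12393 with a probe set of their own, on 79 probe sets. The brightest probe set over the 6 arrays stood for each gene, and all 47 passed the expression filter, so that they stand among 7644 genes tested. Dkc1, which the rule also names, had no probe set with its symbol alone in the annotation used.

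The data were 6 arrays of 3 mouse lung adenocarcinoma-derived cell lines on the C57/B6-129SvJae background, with 1 array per line and treatment. In the tamoxifen group, KPR4, KPR5 and KPR8 cells were given 4-OH tamoxifen at 250 nM in ethanol 24 h before RNA was collected, and per the labels this reactivates p53. In the vehicle group the same 3 lines were given ethanol, so both groups carry the allele that tamoxifen reactivates. No such treatment of a line without that allele was analysed here, and an effect of p53 cannot be told apart from another effect of 4-OH tamoxifen. The labels do not say whether a line is 1 clone.

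Values are log2 expression made by the authors, on a scale where the brightest of 27 bacterial control probe sets reached 2.84. The arrays had medians of 4.56 to 4.63. The gene whose expression is restored was not analysed here. Its target Cdkn1a, which encodes the cell cycle inhibitor p21, read 11.31, 11.23 and 10.75 with tamoxifen in KPR4, KPR5 and KPR8 and 5.69, 7.73 and 5.97 with ethanol. The 8 epithelial markers all passed the filter. Of 7 alveolar and airway markers 2 passed, Aqp5 (mean 8.48) and Abca3 (mean 7.44), while Nkx2-1, Sftpc, Sftpb, Sftpa1 and Scgb1a1 averaged 2.30 to 2.93, near background. On the log2 scale the summed level of all 7 alveolar and airway markers was 8.27 to 10.37 with tamoxifen and 8.60 to 10.18 with ethanol. Of the epithelial markers 1 was lower with tamoxifen, Epcam (-0.37), and 2 were higher, Cldn4 (0.89) and Cdh1 (0.30), and of the leukocyte markers 1 was higher, the macrophage gene Cd68. It read 4.83, 4.75 and 4.32 with tamoxifen and 3.66, 3.76 and 3.42 with ethanol, and so passed the filter only through the tamoxifen arrays. All 6 endothelial markers were under the filter, and 3 of 8 leukocyte and 3 of 8 fibroblast markers passed it. Besides Cd68 the leukocyte ones were Cd14 (mean 7.60, highest in KPR4) and Cd3e (mean 3.97), while Ptprc averaged 1.77. The fibroblast ones were Col1a1 (mean 6.72), Col1a2 (mean 5.02) and Pdgfra (mean 4.29). The summed level of the leukocyte markers was 7.31 to 9.40 with tamoxifen and 7.18 to 9.17 with ethanol, and that of the fibroblast markers was 7.14 to 8.32 with tamoxifen and 7.30 to 8.11 with ethanol.

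The promoters of Exosc2, Nop2 and Rrp36 show the range of the set. Exosc2 had the largest fall, and Rrp36 is the gene that rose. Nop2 is 1 of 2 genes with a MYC-type E-box among the 16 lower genes with a listed promoter window. The other lower genes could not be searched. Each sequence is the stretch from RefSeq just before the start site on the gene's own strand in GRCm38.p6. Capitals mark the letters CACGTG (the E-box that MYC binds), CCGGAAG (the core of ETS factor sites) or TTTGAA (the core of the cell cycle gene homology region), on either strand. The Exosc2 stretch lies at chr2:31670465-31670714 on the plus strand, the Nop2 stretch at chr6:125131633-125131882 on the plus strand and the Rrp36 stretch at chr17:46674307-46674556 on the minus strand.
Exosc2: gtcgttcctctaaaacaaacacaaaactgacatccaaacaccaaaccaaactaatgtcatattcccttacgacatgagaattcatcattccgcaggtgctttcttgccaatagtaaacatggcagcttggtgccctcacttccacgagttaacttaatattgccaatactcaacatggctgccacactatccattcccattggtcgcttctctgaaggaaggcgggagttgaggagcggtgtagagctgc
Nop2: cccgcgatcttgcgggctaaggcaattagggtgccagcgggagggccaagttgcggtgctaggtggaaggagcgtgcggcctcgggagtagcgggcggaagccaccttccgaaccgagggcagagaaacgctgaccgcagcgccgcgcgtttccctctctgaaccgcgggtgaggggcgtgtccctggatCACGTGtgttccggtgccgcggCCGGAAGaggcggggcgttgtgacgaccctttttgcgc
Rrp36: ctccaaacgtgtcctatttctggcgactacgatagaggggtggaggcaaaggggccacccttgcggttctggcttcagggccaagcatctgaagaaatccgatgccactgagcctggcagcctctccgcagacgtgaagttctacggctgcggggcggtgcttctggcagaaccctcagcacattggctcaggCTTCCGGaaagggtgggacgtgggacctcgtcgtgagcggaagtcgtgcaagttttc
In Nop2 the E-box starts at -60 and the ETS core at -38 from the start site, and in Rrp36 the ETS core, read on the opposite strand, starts at -57 from the first listed of its 2 start sites. None of the 3 searched motifs is in the Exosc2 window. These matches describe letters and not bound sites.

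With tamoxifen, many of the nucleolar genes fell, mostly by a modest amount. Of 47 genes, 20 were lower and 1 was higher with tamoxifen in the limma fit (Benjamini-Hochberg adjusted p under 0.05), against 8.94% of all genes tested lower and 10.5% higher. The median log2 change of the 47 was -0.41, beside 0.00 over all genes tested. The change was below 0 for 41 of them, against 49.8% of all genes tested. It was below 0 in each of the 3 lines for 35, against 25.7% of all genes tested, and above 0 in each line for 1, against 26% of all genes. For 11 genes the 3 tamoxifen arrays lay below all 3 ethanol arrays, which was so for 8.2% of all genes. Exosc2 was the 1 gene past the threshold that changed by log2 1 or more, which was so for 261 of the 7644 genes tested. The largest falls were those of Exosc2, Srm, Rrp1b, Nolc1 and Nop58, and Rrp36 rose.

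The changes were measured within lines, and the calls rest on that. In the fit without the line term 0 of 47 genes passed in limma, with adjusted p from 0.151 to 0.725 for the 20. At an unadjusted p under 0.05 limma had 9 lower and 1 higher there, a threshold at which all genes were not counted. With 1 line left out, 19 genes were lower without KPR4, 14 without KPR5 and 12 without KPR8, and 9 of the 20 were called in every one of these fits: Exosc2, Srm, Rrp1b, Nolc1, Nop58, Nop56, Fbl, Gar1 and Nhp2.

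**Figure D1:**
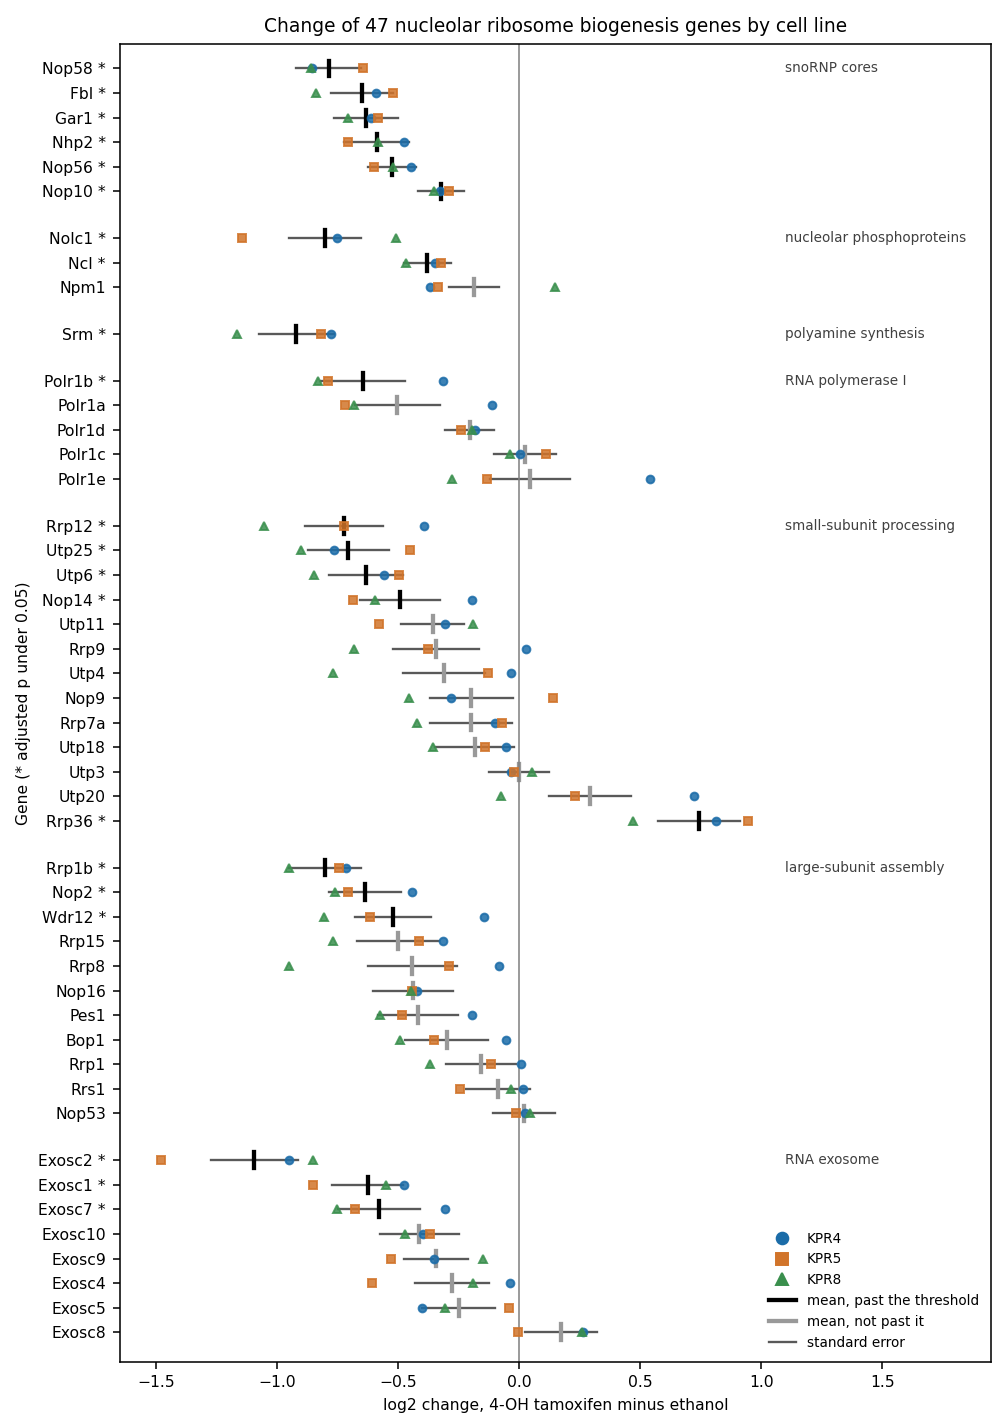
Log2 change of each of the 47 genes, 4-OH tamoxifen minus ethanol, in KPR4 (circles), KPR5 (squares) and KPR8 (triangles), with the mean of the 3 lines (vertical bar, black where the adjusted p is under 0.05) and its limma standard error (horizontal line). The 6 snoRNP genes lie left of 0 in each line, and Rrp36 is the gene past the threshold on the right.

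**Figure D2:**
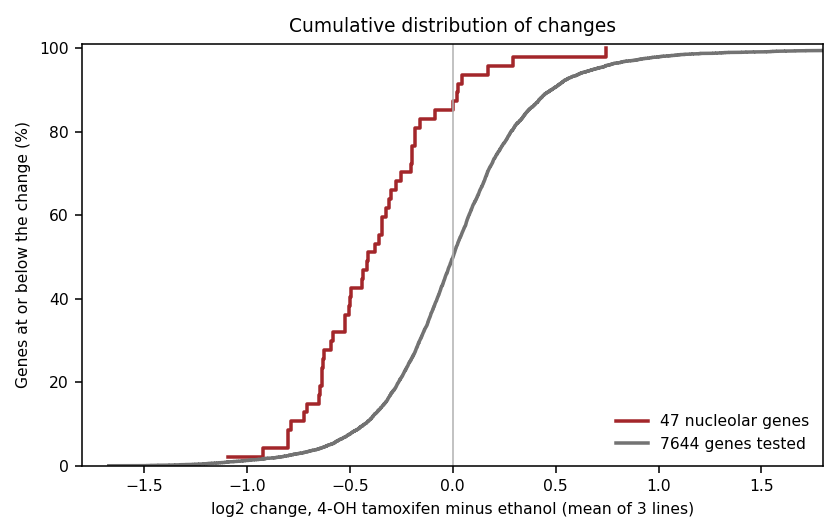
Cumulative share of genes (y axis, %) at or below each log2 change (x axis, mean of 3 lines) for the 47 nucleolar genes and the 7644 genes tested. The nucleolar curve lies to the left, with medians of -0.41 for the nucleolar genes and 0.00 for all genes.

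The median change of the 47 genes was -0.31 in KPR4, -0.44 in KPR5 and -0.51 in KPR8. Of the 47, 38 were lower with tamoxifen in KPR4, against 48.8% of all genes tested. In KPR5 43 were lower, against 46.4% of all genes, and in KPR8 42 were lower, against 54% of all genes. RNA integrity, read as the 3' over the 5' Gapdh control on the log2 scale, differed between tamoxifen and ethanol by 0.24 (KPR4), 0.29 (KPR5) and -0.40 (KPR8). The same measure for Actb differed by 0.16 (KPR4), 0.39 (KPR5) and -0.07 (KPR8), and its part in the result was not tested. Because these are bulk cultures, less RNA per cell and fewer cells that express a gene cannot be told apart, and normalization between arrays would mask any change common to most of the genes.

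All 6 snoRNP core genes that the set holds were lower, against 8.94% of all genes tested, with a median change of -0.61 for the 6. Fbl, Nop56 and Nop58 encode core proteins of the box C/D particles, which guide 2'-O-methylation of ribosomal RNA, with fibrillarin (Fbl) as the methyltransferase. Gar1, Nhp2 and Nop10 encode core proteins of the H/ACA particles, which guide pseudouridylation. Nop58 read 8.23, 9.52 and 9.10 with tamoxifen in KPR4, KPR5 and KPR8 and 9.08, 10.17 and 9.96 with ethanol. The fall was similar in size in the 3 lines, and the groups overlap, with KPR4 lowest in both treatments. Its log2 change was -0.79 ± 0.13 (limma standard error, adjusted p = 0.00085), so that 58% of the ethanol level was left.

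Fbl read 9.32, 9.88 and 9.27 with tamoxifen and 9.92, 10.40 and 10.11 with ethanol, with no overlap between groups. Its change was -0.65 ± 0.13 (limma adjusted p = 0.00254), and a dimmer probe set gave -0.49. Gar1 read 9.33, 9.30 and 8.85 with tamoxifen and 9.93, 9.88 and 9.55 with ethanol, again without overlap. Its change was -0.63 ± 0.13 (limma adjusted p = 0.00322). The other changes were -0.59 for Nhp2, -0.52 for Nop56 and -0.32 for Nop10. Another probe set of Nop56 gave -0.86. The probe sets that represent Fbl, Gar1, Nhp2 and Nop56 end in _s_at, the maker's mark for a set that matches more than 1 transcript, as do those of Nop53 and Polr1c, and that of Polr1e ends in _x_at, the mark for possible cross-hybridisation. Nop10 lost its call with any line left out: its change was -0.32 without KPR4 (adjusted p = 0.176), -0.34 without KPR5 (adjusted p = 0.0828) and -0.31 without KPR8 (adjusted p = 0.058), in a range of 0.0234 to 0.63 over all alternatives.

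Among the abundant nucleolar phosphoproteins, 2 of 3 genes fell, against 8.94% of all genes tested. Nolc1 encodes a chaperone of snoRNPs. It read 8.89, 8.55 and 9.12 with tamoxifen and 9.64, 9.69 and 9.63 with ethanol. The tamoxifen arrays lay below all ethanol arrays. The ethanol arrays were nearly level for this probe set alone, since the others read 8.80, 9.92 and 9.52 and 6.16, 7.78 and 6.61 with ethanol. The change was -0.80 ± 0.15 (limma adjusted p = 0.00161), and its 3 probe sets ran from -0.92 to -0.80. Ncl, encoding nucleolin, an RNA-binding protein that acts in the transcription and processing of ribosomal RNA, read 11.17, 12.01 and 11.81 with tamoxifen and 11.52, 12.33 and 12.28 with ethanol. Its change was -0.38 ± 0.10 (limma adjusted p = 0.0123), and its 4 probe sets ran from -0.83 to -0.21. Without KPR4 the change of Ncl was -0.39 and the call ended (adjusted p = 0.059, with a range of 0.0104 to 0.725 over the alternatives). Npm1, encoding nucleophosmin, a histone and ribosome chaperone that shuttles between nucleolus and cytoplasm, read 12.33, 12.52 and 12.85 with tamoxifen and 12.70, 12.85 and 12.70 with ethanol. On this probe set the tamoxifen array was below its control in KPR4 and KPR5 and above it in KPR8. The other, slightly dimmer one was lower with tamoxifen in each line, with changes of -0.14, -0.24 and -0.18 in KPR4, KPR5 and KPR8. The change of -0.19 ± 0.10 did not pass (limma adjusted p = 0.235). Without KPR8 it was -0.35 and passed (adjusted p = 0.0268, with a range of 0.0268 to 0.746 over the alternatives).

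Srm encodes spermidine synthase, an enzyme of polyamine synthesis and a known target of MYC. It read 7.30, 8.42 and 7.66 with tamoxifen and 8.08, 9.24 and 8.83 with ethanol. It was lower in each line, and the groups overlap, with KPR4 lowest in both treatments. The change was -0.92 ± 0.15 (limma adjusted p = 0.000738), leaving 52.9% of the ethanol level. Of 8 other genes of polyamine metabolism tested, 2 were lower and 2 higher, against 8.94% and 10.5% of all genes tested. The lower ones were Azin1, which protects ornithine decarboxylase from degradation (-0.62 ± 0.15, limma adjusted p = 0.0107), and Mtap, which salvages the by-product of spermidine synthesis (-0.40). The higher ones were the catabolic enzymes Smox, a spermine oxidase (0.74 ± 0.19), and Sat1, an acetyltransferase of polyamines (0.59 ± 0.14). All 4 calls ended without KPR5, that of Mtap also without KPR4 (-0.41, adjusted p = 0.0697) and that of Sat1 also without KPR8 (0.56, adjusted p = 0.0612). Without KPR5 the changes were -0.53 for Azin1 (adjusted p = 0.0853), -0.30 for Mtap (0.155), 0.52 for Smox (0.111) and 0.49 for Sat1 (0.0764), and over the alternatives the adjusted p reached 0.698 at most.

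**Figure D3:**
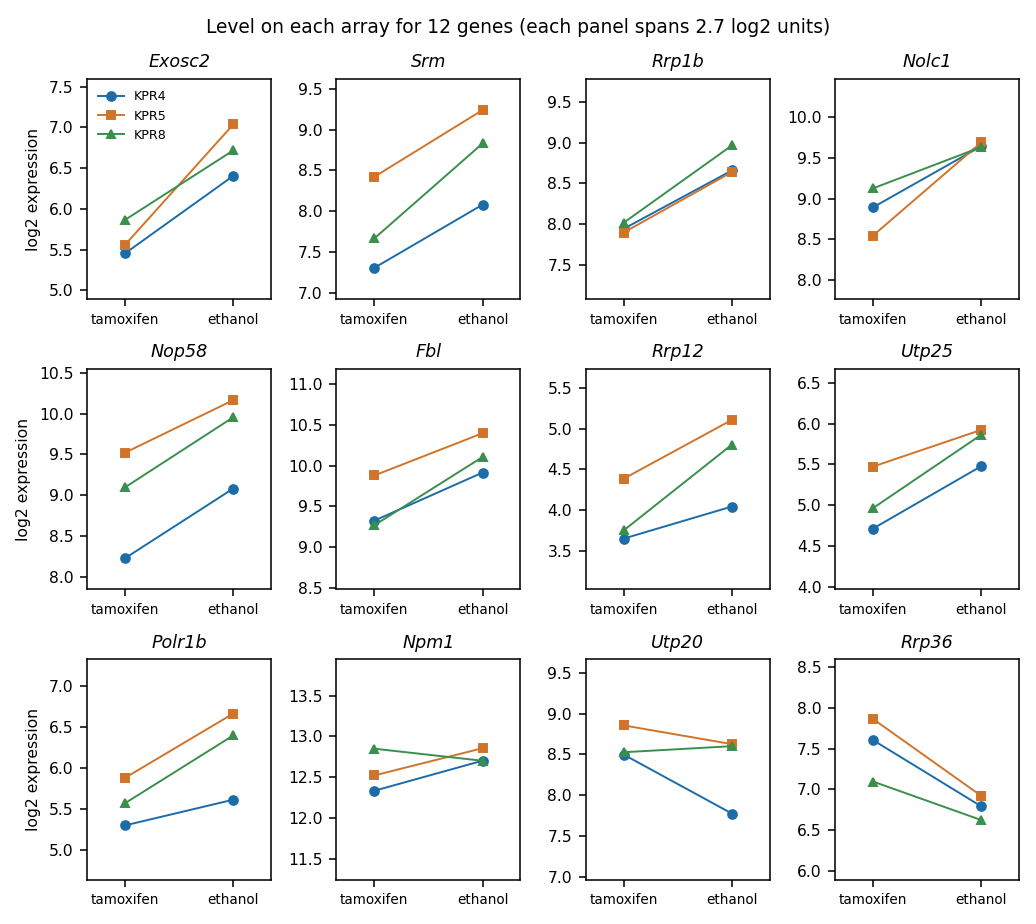
Log2 expression (y axis) on the tamoxifen and ethanol arrays of KPR4 (circles), KPR5 (squares) and KPR8 (triangles) for 12 genes, with a line joining the arrays of a cell line. Nolc1 lies between 9.63 and 9.69 on the ethanol arrays and lower on each tamoxifen array, while Npm1 and Utp20 in KPR8 run against the other lines. Each panel shows the brightest probe set.

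Of 5 genes of RNA polymerase I, 1 was lower, against 8.94% of all genes tested. The median change of the group was -0.20. Polr1b encodes the second-largest subunit, which forms the active site with that of Polr1a. It read 5.30, 5.88 and 5.57 with tamoxifen and 5.61, 6.67 and 6.40 with ethanol, for a change of -0.65 ± 0.17 (limma adjusted p = 0.0172). The fall in KPR4 was the smallest of the 3. Without KPR5 the change was -0.57 (adjusted p = 0.0875) and without KPR8 -0.55 (adjusted p = 0.109), so the call ended in both, with a range of 0.0111 to 0.568 over the alternatives. Polr1a, the largest subunit, read 5.11, 5.65 and 4.60 with tamoxifen and 5.22, 6.37 and 5.28 with ethanol. Its change of -0.50 ± 0.17 did not pass (limma adjusted p = 0.0564). Without KPR4 it was -0.70 and passed (adjusted p = 0.0302), as it did for the mean of its 3 probe sets (-0.45, adjusted p = 0.033), in a range of 0.0302 to 0.736 over the alternatives. Polr1c and Polr1d encode subunits shared with RNA polymerase III, and their changes were 0.03 ± 0.13 and -0.20 ± 0.10. Polr1e had 0.54 in KPR4, -0.13 in KPR5 and -0.28 in KPR8, for a mean of 0.04 ± 0.17 that was -0.20 without KPR4. The other probe sets of Polr1c and Polr1e gave -0.28 and -0.25.

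Outside the rule, 11 other genes that serve RNA polymerase I were tested, among them subunits shared with the other polymerases. Of these, 3 were lower and 1 higher, against 8.94% and 10.5% of all genes tested. Ubtf, the factor that opens ribosomal DNA for transcription, had -0.52 ± 0.16 (limma adjusted p = 0.0367), and the shared subunits Polr2e and Polr2h had -0.53 and -0.51. Rrn3, which recruits the polymerase to the promoter, was higher by 0.39 ± 0.12 (limma adjusted p = 0.0362). The 3 lower calls each ended with any line left out, and that of Rrn3 ended without KPR4 (0.32, adjusted p = 0.248) and without KPR8 (0.33, adjusted p = 0.151). Of 8 genes of RNA polymerase III, 1 was higher, against 10.5% of all genes tested. This was Polr3k (0.43 ± 0.14, limma adjusted p = 0.0488), and its call too ended with any line left out.

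Of 13 genes of small-subunit processing, 4 were lower and 1 was higher, against 8.94% and 10.5% of all genes tested. The median change of the group was -0.31. Rrp12, whose yeast counterpart acts in the export of pre-ribosomal subunits, read 3.65, 4.39 and 3.75 with tamoxifen and 4.04, 5.11 and 4.80 with ethanol. It is a dim gene that lay under the filter level of log2 4 on 2 arrays, and its change was -0.72 ± 0.16 (limma adjusted p = 0.00546). Utp25 read 4.71, 5.47 and 4.96 with tamoxifen and 5.48, 5.92 and 5.86 with ethanol, with a change of -0.71 ± 0.17 (limma adjusted p = 0.00793). Both belong to the machinery that cuts the precursor on the way to the small subunit. Utp6, a component of the small-subunit processome, read 7.74, 8.16 and 7.91 with tamoxifen and 8.30, 8.66 and 8.76 with ethanol. Its change was -0.63 ± 0.15 (limma adjusted p = 0.00882), but another of its 3 probe sets gave 0.09, and with the mean of the probe sets the call ended (-0.33, adjusted p = 0.0891). The groups did not overlap for Utp25 and Utp6. The fourth was Nop14 (-0.49 ± 0.16, limma adjusted p = 0.0476).

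All 4 calls ended when a line was left out. Without KPR8 the change was -0.56 for Rrp12 (adjusted p = 0.0836), -0.61 for Utp25 (adjusted p = 0.0714), -0.53 for Utp6 (adjusted p = 0.065) and -0.44 for Nop14 (adjusted p = 0.165), and without KPR5 it was -0.39 for Nop14 (adjusted p = 0.228). Over the alternatives the adjusted p ran from 0.00112 to 0.511 for Rrp12, from 0.0069 to 0.397 for Utp25, from 0.0081 to 0.381 for Utp6 and from 0.0397 to 0.699 for Nop14.

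Rrp36, whose human counterpart acts in early cleavages of the precursor, was the gene of the set that rose. It read 7.60, 7.86 and 7.09 with tamoxifen and 6.79, 6.92 and 6.62 with ethanol. Each tamoxifen array lay above all ethanol arrays, which was so for 7.48% of all genes tested. The change was 0.74 ± 0.17 (limma adjusted p = 0.00598), or 1.67-fold. Without KPR5 it was 0.64 and just missed the threshold (adjusted p = 0.0509, with a range of 0.00534 to 0.371 over the alternatives). Rrp36 was read by 1 probe set. Utp20 had 8.50, 8.86 and 8.53 with tamoxifen and 7.78, 8.63 and 8.60 with ethanol, and its value of 0.29 ± 0.17 did not pass (limma adjusted p = 0.245). Its change was 0.72 in KPR4, 0.23 in KPR5 and -0.07 in KPR8. The remaining 7 genes had changes from -0.36 (Utp11) to 0.00 (Utp3) and did not pass.

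Of 11 genes of large-subunit assembly, 3 fell, against 8.94% of all genes tested. The median change of the group was -0.44. Rrp1b read 7.94, 7.90 and 8.02 with tamoxifen and 8.66, 8.64 and 8.96 with ethanol. The groups did not overlap, and its 3 probe sets gave -0.80 to -0.39. Its change was -0.80 ± 0.15 (limma adjusted p = 0.00152). Its relative Rrp1 read 8.68, 8.72 and 8.60 with tamoxifen and 8.67, 8.83 and 8.96 with ethanol, and its change of -0.16 ± 0.15 did not pass (limma adjusted p = 0.5). The difference between the pair was not tested. Nop2, which methylates 28S ribosomal RNA, read 7.78, 8.44 and 8.15 with tamoxifen and 8.22, 9.15 and 8.91 with ethanol, with a change of -0.64 ± 0.15 (limma adjusted p = 0.00751). Without KPR8 it was -0.57 and missed the threshold (adjusted p = 0.0554, with a range of 0.00692 to 0.557 over the alternatives).

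Bop1, Pes1 and Wdr12 encode the PeBoW complex, which acts in processing of the large-subunit RNA. Wdr12 read 8.26, 8.72 and 8.43 with tamoxifen and 8.40, 9.33 and 9.23 with ethanol, with a change of -0.52 ± 0.16 (limma adjusted p = 0.0312). Pes1 had -0.42 ± 0.16 (limma adjusted p = 0.089) and Bop1 -0.30 ± 0.17 (limma adjusted p = 0.241). On the brightest probe sets all 3 were below 0 in each line, with the smallest change in KPR4. The other probe set of Wdr12 had -0.22, -0.72 and -0.14 in KPR4, KPR5 and KPR8. That of Pes1, under the filter, had 0.42, -0.07 and 0.20. The call of Wdr12 ended without KPR5 (-0.47, adjusted p = 0.129) and without KPR8 (-0.38, adjusted p = 0.186), in a range of 0.0115 to 0.626 over the alternatives. Rrp15 stood at the threshold (-0.50 ± 0.17, limma adjusted p = 0.0514), and Nop16 had -0.44 ± 0.16 without passing (limma adjusted p = 0.0748). Its change was -0.42, -0.44 and -0.45 in KPR4, KPR5 and KPR8 on the brighter probe set and -0.22, -0.84 and -0.56 on the other. Rrs1, which in yeast brings the 5S particle into the large subunit, and Nop53 had -0.09 ± 0.13 and 0.02 ± 0.13.

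Of 8 genes of the RNA exosome, 3 fell, against 8.94% of all genes tested. The median change of the group was -0.38. Exosc2, a subunit of the RNA-binding cap, read 5.45, 5.56 and 5.86 with tamoxifen and 6.40, 7.04 and 6.72 with ethanol. All tamoxifen arrays lay below all ethanol arrays. Its change of -1.09 ± 0.18 (limma adjusted p = 0.00061) left 46.9% of the ethanol level and ranked 69th by size among all falls tested. Exosc1, another cap subunit, read 8.19, 8.66 and 8.36 with tamoxifen and 8.66, 9.51 and 8.91 with ethanol, and Exosc7, of the ring, read 6.93, 7.04 and 6.35 with tamoxifen and 7.23, 7.72 and 7.10 with ethanol. Both were lower in each line, without overlap for Exosc7. Exosc1 had -0.63 ± 0.15 (limma adjusted p = 0.00767), and Exosc7 had -0.58 ± 0.17 (limma adjusted p = 0.0258). A dimmer probe set of Exosc1 gave -0.16, and with the mean of both the call ended (-0.39, adjusted p = 0.0877). Without KPR5 the change was -0.51 for Exosc1 (adjusted p = 0.0783, with a range of 0.00707 to 0.496 over the alternatives) and -0.53 for Exosc7 (adjusted p = 0.117), and without KPR8 that of Exosc7 was -0.49 (adjusted p = 0.118, with a range of 0.0214 to 0.563). Exosc10, the nuclear nuclease of the complex, had -0.41 ± 0.16 and did not pass (limma adjusted p = 0.0894), nor did Exosc9 (-0.34), Exosc4 (-0.28), Exosc5 (-0.25) and Exosc8 (0.17). Exosc5 was the dimmest, at 3.86 to 4.56. Of 11 tested cofactors and other 3' trimming factors, 2 were lower and 2 higher, against 8.94% and 10.5% of all genes tested. The lower ones were the nucleases Dis3 (-0.57) and Eri1 (-0.52), and the higher ones C1d (0.42) and Wdr61 (0.60). Wdr61 was called with each line left out, while the calls of Dis3, Eri1 and C1d ended without KPR8 (adjusted p of 0.117, 0.0517 and 0.125) and at least 1 other line.

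Of 35 further small-subunit factors, 8 were lower and 1 higher, with a median of -0.33. Of 41 further large-subunit factors, 11 were lower and 2 higher, with a median of -0.31. Among all genes tested 8.94% were lower and 10.5% higher. The largest fall was that of Lyar, a nucleolar protein of growing cells, which read 6.81, 8.62 and 8.35 with tamoxifen and 7.99, 9.79 and 9.51 with ethanol. Its change was nearly equal in the 3 lines, at -1.17 ± 0.14 (limma adjusted p = 5.5e-05). Heatr1, a processome component, had -0.80 ± 0.16 (limma adjusted p = 0.00268), Mybbp1a, a nucleolar protein that binds MYB and p53, had -0.77 ± 0.12 (limma adjusted p = 0.000288), and Grwd1, a ribosomal protein chaperone, had -0.72 ± 0.15 (limma adjusted p = 0.00424). Without KPR8 the change of Grwd1 was -0.50 (adjusted p = 0.0548). Averaging the probe sets of a gene ended the calls of Heatr1 (-0.51, adjusted p = 0.0511), Grwd1 (-0.53, adjusted p = 0.0581), Krr1 (0.08, adjusted p = 0.765) and Brix1 (0.44, adjusted p = 0.0634). The 3 that were higher were Krr1 (0.50), Mak16 (0.37) and Brix1 (0.35), and each lost its call without KPR8 (adjusted p of 0.0816, 0.0539 and 0.111) and without KPR4 (0.0692, 0.303 and 0.176). The lower counts were 7 and 9 without KPR4, 4 and 4 without KPR5, and 3 and 6 without KPR8 for the small and large subunit. For the large subunit it was also 7 with probe sets averaged and 6 with no filter.

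Of 15 proliferation genes, 12 were lower, against 8.94% of all genes tested, and the median of the list was -1.23. Mki67, named as the usual marker of cycling cells, read 9.48, 9.88 and 9.57 with tamoxifen and 10.93, 10.96 and 10.76 with ethanol. Of 11 genes of ribosomal stress and the p53 pathway, 7 were higher, against 10.5% of all genes tested. All 7 are known p53 targets or regulators: Cdkn1a, Phlda3, Mdm2, Ccng1, Mdm4, Sesn2 and Rps27l. The median of 1.06 is that of Sesn2, which was under log2 4 on every ethanol array. The ribosomal protein genes Rps7 (-0.23) and Rpl11 (-0.15) did not pass, nor did Cdkn2a (-0.18) and Sesn1 (0.19). Of 10 tested genes of the MYC network, 2 were higher, both antagonists of MYC, against 10.5% of all genes tested. Others of that kind in the list, Mga (-0.32), Mxd3 (-0.14) and Mnt (-0.06), did not pass, and Mxd1 was under the filter. Mxd4 read 6.81, 6.49 and 5.83 with tamoxifen and 6.19, 3.79 and 4.16 with ethanol (1.66 ± 0.27, limma adjusted p = 0.000626), with the smallest rise in KPR4. Mxi1 had 0.82 ± 0.16 (limma adjusted p = 0.0022), or 0.77 without KPR8 (adjusted p = 0.052). Myc itself read 7.10, 7.41 and 7.01 with tamoxifen and 7.28, 7.79 and 7.42 with ethanol, and its change of -0.32 ± 0.16 did not pass (limma adjusted p = 0.176). The part of any of these groups in the fall of the nucleolar genes was not tested.

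**Figure D4:**
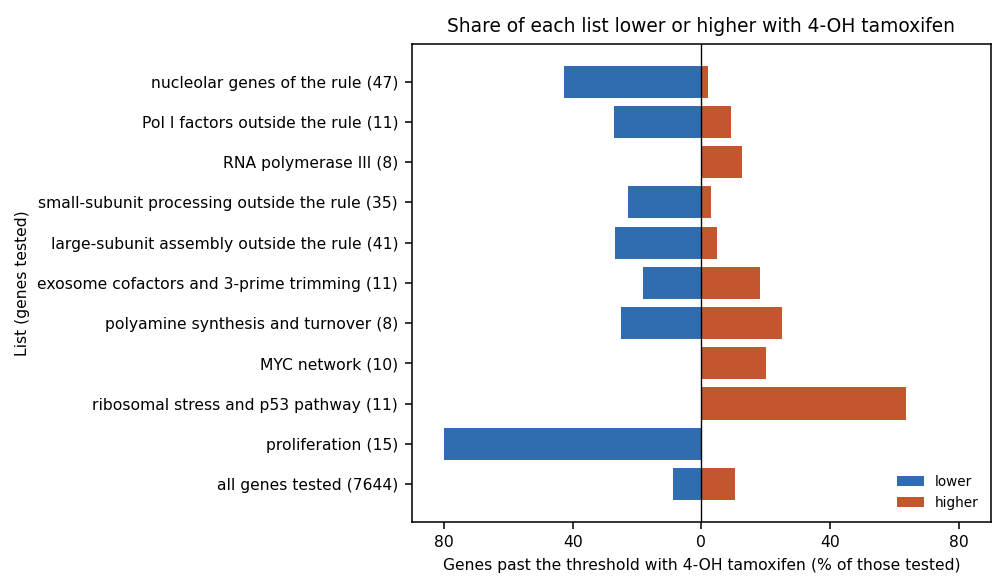
Share of each list (x axis, % of the genes tested) that was lower (blue, left) or higher (red, right) with 4-OH tamoxifen at an adjusted p under 0.05, with the number of genes tested in brackets. Of the nucleolar set 20 of 47 were lower and 1 higher, against 8.94% and 10.5% of all genes.

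The lines differed in their level of these genes at equal treatment. In the limma F-test 30 of 47 genes differed between lines (adjusted p under 0.05), or 63.8%, against 42% of all genes tested. KPR4 had the lowest level for 32 of the 47, against 2823 of all 7644 genes tested. KPR5 had the highest for 32, against 2741 of all genes. Among the 30 that passed, KPR4 was lowest for 24 and KPR8 for 6, against 1290 and 1110 of the 3210 genes that passed. KPR5 was highest for 23 of the 30 and KPR8 for 7, against 1052 and 972 of those 3210 genes. The median range between lines was 0.66, against 0.50 over all genes. The widest was that of Nop58, whose mean over both treatments was 8.65 in KPR4, 9.84 in KPR5 and 9.53 in KPR8 (F-test adjusted p = 0.000153). Utp4 had 7.64, 8.79 and 8.09 (adjusted p = 0.00186) and Srm had 7.69, 8.83 and 8.25 (adjusted p = 0.000953). Rrs1 had 9.01, 9.66 and 10.13 (adjusted p = 0.00027) and Bop1 5.83, 6.94 and 6.76 (adjusted p = 0.00148), each lowest in KPR4. For each of these genes the range between lines exceeded the size of the change with tamoxifen. These levels are those of the brightest probe set, and others of a gene can differ more between lines, as given above for Nolc1.

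**Figure D5:**
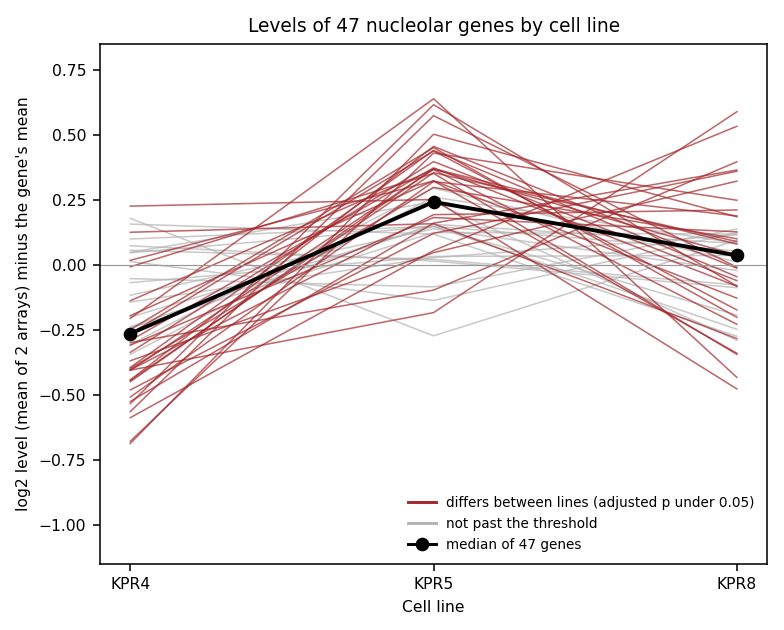
Log2 level of each of the 47 genes in KPR4, KPR5 and KPR8 (mean of the tamoxifen and ethanol arrays), given as the difference from the gene's mean over the lines (y axis). Red lines are the 30 genes that differ between lines in the limma F-test, grey lines the others and the black line the median. In KPR4 32 genes are lowest, against 2823 of all 7644 genes tested.

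A RefSeq promoter window, from 250 bases before to 50 after a start site, was listed for 36 of the 47 genes, 16 of the 20 lower ones among them. Not in that table were Bop1, Exosc4, Exosc9, Fbl, Nop53, Npm1, Rrp12, Rrs1, Srm, Utp11 and Utp6. The E-box CACGTG was in a window of 8 of the 36 (22.2%), against 12.4% of the 6261 genes tested that have one and 8.09% of all 27025 genes in the table. Of the 16 lower genes 2 held it, Nop2 and Utp25, and of the 19 that did not pass 6 did. The ETS core CCGGAAG was in 12 of the 36 (33.3%), against 21.9% of tested and 9.93% of all genes. TTTGAA, which lies in many genes of mitosis, was in 2 (5.56%), Ncl and Wdr12, against 14.4% of tested and 20.2% of all genes. No window of the 36 held the full p53 consensus of both decamers with a spacer of up to 13 bases, which was in 4 of the 6261. Motifs were searched on both strands, and an absence says only that these letters are not in this window.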

How the data were processed

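The authors deposited 1 log2 expression value per probe set and array. Per the submitters' processing notes the authors made them with GCRMA 2.20.0 in R 2.11.0, a method that corrects background by probe sequence and normalizes the arrays together. The sources used here do not say which arrays were run together. Per the labels' protocols, 100 ng of Trizol-extracted RNA went into each labelling. No detection calls, scanner files or scan dates were used, so saturation and batches were not examined.

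GEO's platform annotation gave 1 symbol for 20380 of 22690 probe sets. A probe set was kept if it reached log2 4 on 3 or more of the 6 arrays, with the brightest probe set standing for a gene. limma 3.58.1 in R 4.3.3 was fitted to all 7644 genes with terms for cell line and treatment and a variance trend. P-values are 2-sided and were adjusted by Benjamini-Hochberg, and 0.05 was the threshold. The 3 lines are the replicates, with 2 residual degrees of freedom and a prior of 12.9, so each standard error leans on other genes. The line term pairs the arrays of a line, whose departures from their group means correlated at 0.876 (KPR4), 0.737 (KPR5) and 0.761 (KPR8). Whether lines responded differently could not be tested. The number of arrays limits the precision.

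The members, the 9 comparison lists and 5 marker lists were chosen with earlier results of these data known. All members may be named, with full values for the 3 largest changes per functional group, every rise, those near the filter and the 5 widest between lines, and up to 4 genes of each other list, with every count of 3 or fewer named. Mki67 and Myc were named as known markers, outside that rule. Alternatives were the fit without the line term, each line left out, no filter and a filter at log2 5, the mean of probe sets, median centring, and 2 forms of variance moderation.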

Additional observations from a re-analysis of the deposited data

Results flagged for a closer look

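For 11 of the 47 genes the tamoxifen array lay above its ethanol array in at least 1 line and below it in at least 1 other. With 1 array per line and treatment none of these differences was tested, and the values that follow are the log2 change in the line or lines that ran against the mean. Polr1e had -0.28 in KPR8, with -0.13 in KPR5 and 0.54 in KPR4. Npm1 had 0.15 in KPR8, against -0.37 in KPR4 and -0.33 in KPR5. Nop9 had 0.14 in KPR5, against -0.28 in KPR4 and -0.45 in KPR8. Utp20 had -0.074 in KPR8, with 0.72 in KPR4 and 0.23 in KPR5. The KPR4 change of Rrp9 was 0.030, while KPR5 had -0.38 and KPR8 -0.68. The opposing values of the other 6 were smaller than 0.06 in size: 0.054 for Utp3 in KPR8, 0.017 for Rrs1 and 0.0088 for Rrp1 in KPR4, -0.0048 for Exosc8 and -0.014 for Nop53 in KPR5, and -0.035 for Polr1c in KPR8. These values are from the brightest probe set of each gene. The other probe set of Npm1 had -0.14, -0.24 and -0.18 in KPR4, KPR5 and KPR8, and that of Polr1c had -0.44, -0.19 and -0.21, so both were lower in each line there. That of Polr1e had 0.33, -0.70 and -0.38, and that of Rrp1 had -0.18, -0.52 and 0.06. A dimmer probe set of Nop53 had 0.24, 0.05 and -0.10, and another, under the filter, had -0.17, 0.06 and -0.01. On that of Rrp1 and the first of these for Nop53, KPR8 was the line that ran against the mean. None of the 11 passed the threshold for treatment.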

How the results depend on the processing

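The paired form of the fit, with cell line as the replicate block, carries the treatment calls. With no replicate block 0 members were lower and 0 higher, and over all genes 1 was lower and 22 higher, against 683 and 805. With a line left out, 12 to 19 members were lower and 0 to 1 higher, Rrp36 losing its call without KPR5. At an unadjusted p under 0.05 limma had 21 members lower and 1 higher without KPR5, a threshold at which all genes were not counted. Over all genes 420 to 456 were lower and 525 to 613 higher at the adjusted threshold with a line left out. The median change of the members stayed between -0.45 and -0.34 under every alternative. With no filter 18 members were lower, with the filter at log2 5 20 of 45, with the mean of probe sets 19, with median centring 21, without the variance trend 20 and with robust moderation 20, each with 1 higher. Of these, 18, 19, 16, 20, 18 and 20 were among the 20 of the report. The count that differed between lines was 27 to 30 in the fits that held the line term and every line. Changes turned sign for Polr1c, Polr1e and Utp3, which had 0.03, 0.04 and 0.00 in the main fit. With the mean of probe sets Polr1c was at -0.13 and Polr1e at -0.10. With a line left out Polr1c ran from -0.016 to 0.057, Polr1e from -0.20 to 0.20 and Utp3 from -0.027 to 0.016. Apart from the line term and left-out lines, calls ended for Nop14 and Wdr12 with no filter. Without the variance trend they ended for Ncl and Nop10. With the mean of probe sets they ended for Exosc1, Nop10, Utp6 and Wdr12, and Polr1a, Nop16 and Rrp15 gained calls. Calls were also gained by 1 member with the filter at log2 5, 1 with median centring and 2 without the variance trend. The causes were not tested. The dimmest members, Rrp12 and Exosc5, lie within about 2 log2 units of the bacterial controls, where changes are least certain.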
